A study of Mus musculus with 22 samples.

Results

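Endocrine cells sorted from the E14.5 mouse pancreas were compared between *Isl1CKO* embryos, in which *Isl1* was deleted by Neurod1-Cre, and controls, across all genes of the deposited count table. The E14.5 samples made up 11 of the 22 libraries of the series, with 6 control and 5 *Isl1CKO* libraries; the other 11 libraries came from P9 pups and were used only to set the 2 ages side by side. Per the study's methods, *Isl1CKO* embryos were Isl1 f/f; Neurod1Cre; TomatoAi14 and the sequenced controls were Isl1 f/+; Neurod1Cre; TomatoAi14. The labels call these groups "Isl1 knockout" and "WT". Both groups therefore carried the Cre, the tdTomato reporter and at least 1 floxed allele, on a C57BL/6 background and in embryos of both sexes. By these genotypes the Cre could delete 1 copy of *Isl1* in control cells too. The comparison is thus of 2 floxed alleles with 1, not with intact *Isl1*. Cre acted only in cells that had switched on *Neurod1*, and the same cells were sorted by their tdTomato fluorescence, so cells that had not yet expressed *Neurod1* were not sampled. Each library held 100 sorted cells. The design text calls the libraries biological replicates without saying how many embryos gave the cells of each, and the p-values below measure the spread between these libraries. In such bulk samples, fewer cells of a type and less RNA per cell cannot be told apart.

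Endocrine cells of the pancreas arise from progenitors that briefly express *Neurog3* and then *Neurod1*, and at mid-gestation many of them are glucagon-producing alpha cells while the main wave of beta cells is beginning. ISL1 is a LIM-homeodomain transcription factor present in all islet cell types, and LIM-homeodomain proteins act together with LDB cofactors and with other homeodomain factors at enhancers. Differentiating endocrine cells assemble a regulated secretory pathway in which granins and prohormone convertases pack peptides into dense-core granules, calcium sensors drive their release, and receptors and transporters couple that release to nutrients.

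The labelled cell type was checked against 12 pan-endocrine markers, and all 12 passed the filter on low counts. The panel was not level between the groups: 2 of the 12 were called higher in *Isl1CKO* cells and 2 lower, by the rule given below. The markers' summed share of all counts was 1.77% to 2.35% in controls and 2.94% to 3.33% in *Isl1CKO* libraries. *Neurod1* was at 13673 ± 1402 TMM-scaled counts in controls and 14946 ± 1442 in *Isl1CKO* cells (SD, n = 6 and n = 5), and *Cpe*, which encodes carboxypeptidase E of the secretory granule, at 40377 ± 2339 and 41974 ± 2849. TMM-scaled counts, called scaled counts from here on, are read counts divided by a library factor so that the levels of 1 gene can be compared between libraries, not between genes. Of the marker lists of other cell types, trunk and duct markers had the largest summed share of all counts, 0.154% to 0.245% in controls and 0.236% to 0.276% in *Isl1CKO* libraries, and 12 of 14 were tested with none called. Acinar and tip markers made up 0.00204% to 0.00774% in 5 controls, 0.0349% in control library 5 and 0.00292% to 0.00684% in *Isl1CKO* libraries; 5 of the 12 measured were tested and none was called, and the defining *Ptf1a* averaged 3.94 scaled counts in controls and 0 in *Isl1CKO* cells. Of 11 endothelial markers measured 4 were tested and none was called, with a median log2 fold change of 0.089. Their summed share was 0.00425% to 0.00528% in controls and 0.00497% to 0.00575% in *Isl1CKO* libraries. The median of that share was 0.00506% in controls and 0.00559% in *Isl1CKO* libraries. Among the 4 tested, 2 had a positive and 2 a negative log2 fold change. *Tie1*, a marker of low count, averaged 3.85 scaled counts in controls and 1.97 in *Isl1CKO* cells. The part of such cells in the results below was not tested. Of 12 macrophage markers measured, 5 could be tested and none was called, although all 5 had a positive log2 fold change, with a median of 2.19. In a fit without *Isl1CKO* libraries 3, 4 and 5 this median was -0.72. The markers' summed share of all counts was 0.0102%, 0.0141% and 0.00674% in *Isl1CKO* libraries 3, 4 and 5. These lie above the 0.00383% to 0.00551% of the controls and the 0.00438% and 0.00395% of *Isl1CKO* libraries 1 and 2. The libraries held 11299969 to 13580985 counts each, and 23185 to 23864 genes had at least 1 count. A first principal component with 20.3% of the variance placed all controls on 1 side and all *Isl1CKO* libraries on the other.

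A gene was called where edgeR's quasi-likelihood test gave a Benjamini-Hochberg adjusted p under 0.05 over the 15960 genes tested, and every adjusted p below comes from that test unless another is named. By this rule 228 genes were called, which is 1.43% of those tested; 96 were higher in *Isl1CKO* cells (0.602%) and 132 lower (0.827%). Scaled counts of the 2 groups did not overlap for 398 genes, or 2.49%. Over all tested genes the log2 fold change had a median of -0.0045, so the comparison was centred near 0. DESeq2 called 653 genes, among them all 228. Leaving out 1 library at a time gave between 114 and 227 calls, with the lowest count without *Isl1CKO* library 5, and without *Isl1CKO* libraries 3, 4 and 5 together 42 genes were called.

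**Figure D1:**
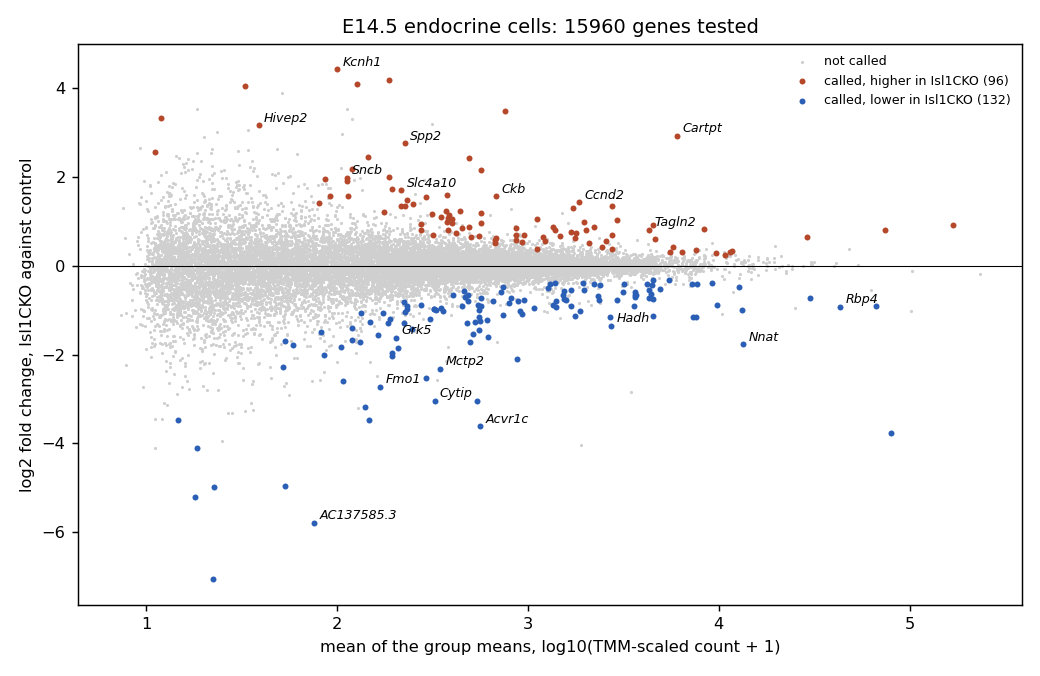
Each point is 1 of 15960 genes, with the mean of the control and *Isl1CKO* group means on the x axis (log10 of the scaled count + 1) and the log2 fold change of *Isl1CKO* against control on the y axis. The 96 genes called higher are in red and the 132 called lower in blue, and the largest changes in both directions are of genes with low mean counts, such as *Kcnh1* at 4.41 and the unnamed transcript *AC137585.3* at -5.78.

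The genes were then grouped into functional classes, each described by the number of members that passed the filter, the number called in each direction and the median log2 fold change. The classes were written with earlier results of these data known and were not tested as sets. Against 1.43% of all genes tested, the share of members called ran from 0% to 27.3%, the latter for 22 granins and prohormone-processing genes. The class of homeobox genes and their cofactors had the most calls, with 10 lower, the targeted *Isl1* among them, of 62 tested (16.1%). In 3 of the classes there were none. These were 61 histone methylation enzymes, 19 mitochondrially encoded genes and 29 receptors for glutamate, GABA and acetylcholine, the last with a median of -0.29.

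**Figure D2:**
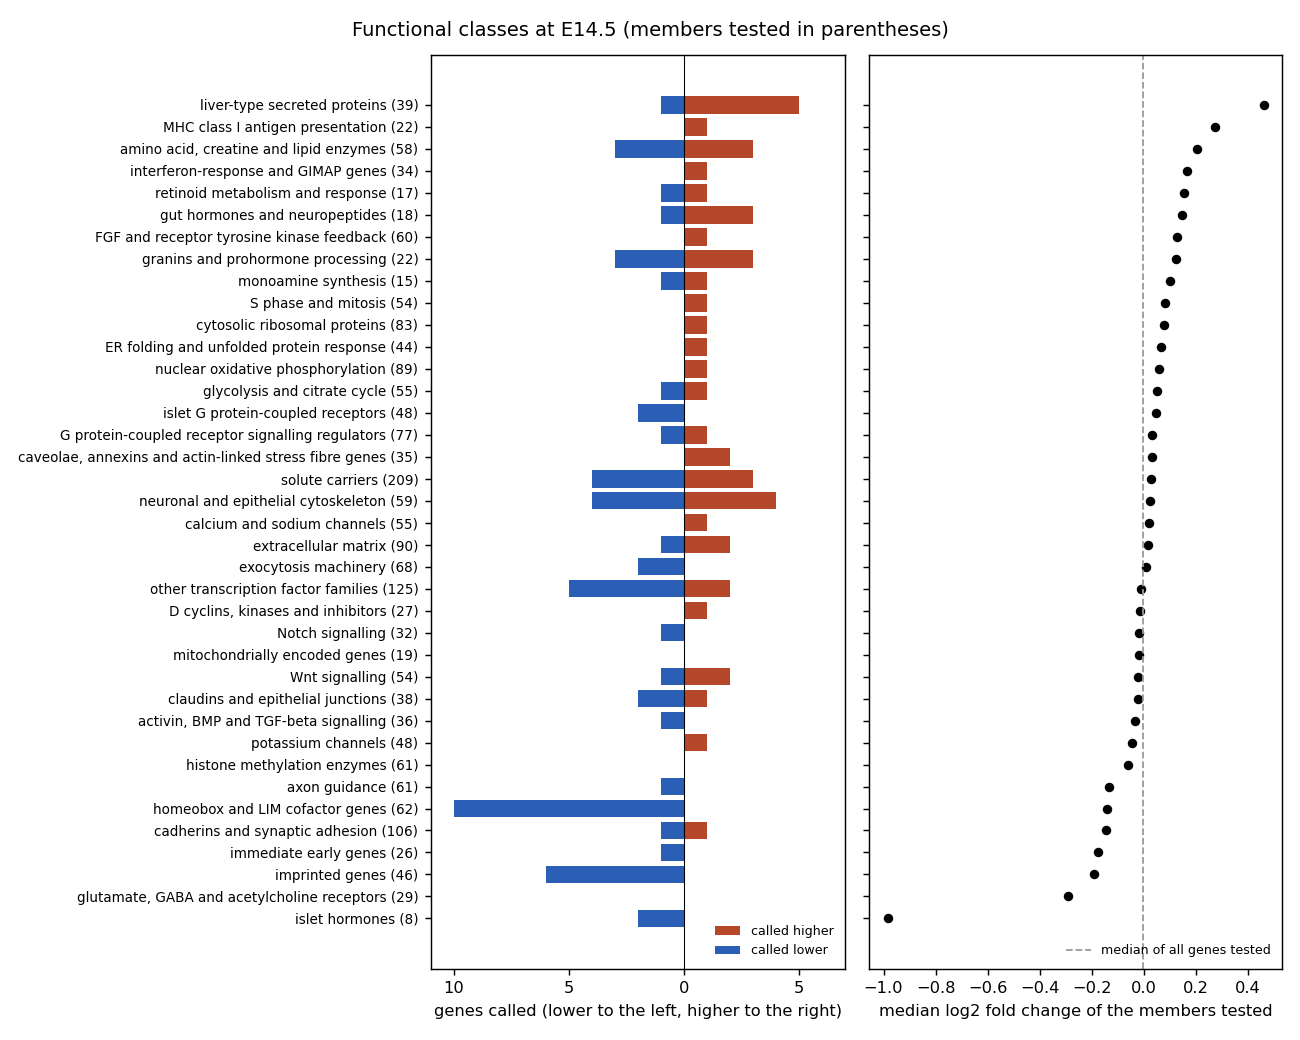
Functional classes, with the number of members tested in parentheses, ordered by the median log2 fold change of the members (right panel, dots; the dashed line is the median of all genes tested). Bars in the left panel count the members called higher (red, to the right) and lower (blue, to the left) in *Isl1CKO* cells; homeobox and LIM cofactor genes, a class that also holds the *Eya* genes, have 10 calls, all lower, and liver-type secreted proteins 5 higher and 1 lower.

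*Isl1* itself, the targeted gene (chr13:116298281-116309689, minus strand, GRCm38.p6), was at 10921, 10839.7, 11165, 11551 and 8884 scaled counts in the *Isl1CKO* libraries and between 12665 and 16811 in controls, with a median of 14867. The groups did not overlap, and the fall was modest (log2 fold change -0.48, SE 0.079, adjusted p = 0.0063). Controls had 1 floxed allele and the Cre, so they are not a measure of the level with both copies intact. In an edgeR model of all 22 libraries, described below, the E14.5 effect of *Isl1* was not called (adjusted p = 0.47). The count covers all exons of the gene, so it does not tell whether the transcripts that remained held the floxed part. In the class of homeobox genes and their cofactors, which takes in LIM cofactors and the *Eya* genes, all 10 called members were lower in *Isl1CKO* cells. The targeted *Isl1* is 1 of these 10. The class had a median log2 fold change of -0.14 over 62 members tested against -0.0045 over all genes. Without *Isl1CKO* libraries 3, 4 and 5, 2 members of the class were still called and the median was -0.16. *Meis2*, a TALE-class homeobox gene whose protein pairs with HOX and PBX factors, was at 4949, 5274, 4233, 4712 and 4226 scaled counts in the *Isl1CKO* libraries and between 9862 and 11549 in controls, with a median of 10269. Even the highest *Isl1CKO* library was below every control, and no other gene had a smaller p (log2 fold change -1.16, SE 0.073, adjusted p = 3.0e-06). *Pax6*, a paired-box regulator needed for islet hormone expression, was at 7533, 7891, 8306, 8484 and 7465 scaled counts in the *Isl1CKO* libraries and between 9146 and 11453 in controls, with a median of 10405. The groups were again apart, although the change was small (log2 fold change -0.39, SE 0.065, adjusted p = 0.0069). *Tshz1*, a zinc-finger homeobox gene of the teashirt family, was at 1744, 2066, 2144, 1582 and 1338 scaled counts in the *Isl1CKO* libraries and between 2620.4 and 3515 in controls, with a median of 2746. No *Isl1CKO* library reached the control range (log2 fold change -0.69, SE 0.12, adjusted p = 0.012). Other called members included *Mnx1*, *Pdx1* and, named here after their values were seen, *Eya1*, *Pou3f4* and *Zeb1*, with log2 fold changes of -1.43, -0.71, -1.55, -0.91 and -0.58. *Eya1* encodes a coactivator that works with homeodomain proteins and has no homeobox itself. The calls of *Pdx1*, *Eya1*, *Pou3f4* and *Zeb1* were lost in 5, 1, 8 and 9 of 11 fits that each left out 1 library.

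Of 125 members tested in other transcription factor families 2 were called higher and 5 lower, with a median log2 fold change of -0.011. *Esrrg*, an orphan nuclear receptor of the estrogen-related family that promotes oxidative metabolism, was at 402, 298, 314, 203 and 264 scaled counts in the *Isl1CKO* libraries and between 52.9 and 142 in controls, with a median of 87.4. Every control was below every *Isl1CKO* library, and the mean rose 3.29-fold (log2 fold change 1.72, SE 0.28, adjusted p = 0.0063). The paralogous zinc-finger genes *Hivep2* and *Hivep3*, which encode large proteins that bind kappa-B-like enhancer sequences, were called in opposite directions. *Hivep2* was nearly silent in controls, at 77.2, 51.6, 84.7, 38.0 and 88.4 scaled counts in the *Isl1CKO* libraries and between 1.00 and 24.9 in controls, with a median of 5.28 (log2 fold change 3.16, SE 0.65, adjusted p = 0.027). *Hivep3* was at 172, 76.9, 108, 104 and 113 scaled counts in the *Isl1CKO* libraries and between 209 and 319.6 in controls, with a median of 265 (log2 fold change -1.20, SE 0.22, adjusted p = 0.013). The groups did not overlap for either paralog, although the *Hivep2* call was lost in 7 of 11 leave-one-out fits and control library 1 was the highest of its group. *Nfat5*, which responds to osmotic stress, was slightly lower (log2 fold change -0.41, SE 0.086, adjusted p = 0.030), and *Klf4*, a Krüppel-like factor of epithelia, was lower by more (log2 fold change -1.49, SE 0.34, adjusted p = 0.043), but their calls were lost in 7 and 9 of these fits. *Tle1*, a Groucho-family co-repressor that homeodomain and TCF proteins recruit, was at 828, 659.8, 731, 785 and 933 scaled counts in the *Isl1CKO* libraries and between 261 and 444 in controls, with a median of 369. Values of the groups did not overlap (log2 fold change 1.17, SE 0.15, adjusted p = 9.9e-04). *Hdac5*, a class IIa histone deacetylase that represses MEF2 targets, was at 587, 523, 443, 535 and 571 scaled counts in the *Isl1CKO* libraries and between 165 and 303 in controls, with a median of 243. The 5 *Isl1CKO* libraries were all higher than the highest control (log2 fold change 1.14, SE 0.16, adjusted p = 0.0021).

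Called genes were next looked at by position. Of the 228, 55 (24.1%) had another called gene within 300 kb, against 8.77% of the tested genes that were not called. Some of these neighbours have overlapping annotations and may share reads. Counting only neighbours that do not overlap the gene itself, the shares were 22.4% and 8.40%. Transcripts nested within the same gene, such as those in *Auts2*, still counted each other, so these shares do not remove the effect of shared reads. The 55 formed 22 blocks, of which 13 held only lower genes, 7 only higher genes and 2 both. The block on chromosome 2 with *Pax6* held *Elp4*, a subunit of the Elongator complex whose introns carry enhancers of *Pax6*, and *Immp1l*, a subunit of the mitochondrial inner membrane peptidase. *Elp4* was at 950.4, 1045, 916, 1032 and 856 scaled counts in the *Isl1CKO* libraries and between 1588 and 2481 in controls, with a median of 1727. *Immp1l* was at 1607, 1732, 1822, 1823 and 1679.9 scaled counts in the *Isl1CKO* libraries and between 2532 and 3274 in controls, with a median of 2998. The groups were apart for both genes, with a larger change in these neighbours (log2 fold change -0.93, SE 0.12, adjusted p = 8.4e-04 for *Elp4*; log2 fold change -0.78, SE 0.082, adjusted p = 2.4e-04 for *Immp1l*) than in *Pax6*. The 5′ ends of *Elp4* (minus strand) and *Immp1l* (plus strand) were 74 bp apart. Among 931 pairs of tested genes that start within 1000 bp of each other on opposite strands, 11 held a called gene and 3 held 2, each time in the same direction. Over all genes tested, 1.43% were called. In 6 of the 8 pairs with 1 called gene, the partner had the same sign of change. How often the 2 genes of a pair share a sign among all 931 pairs was not worked out. These counts are therefore not read as a trait of divergent pairs. The other pairs with both genes called were *Ccdc148* and *Pkp4*, 167 bp apart, and *Tle1* and the noncoding *C630043F03Rik*, 429 bp apart. *Pkp4*, an armadillo-repeat protein of cell junctions, was at 1031, 858, 674, 553 and 567 scaled counts in the *Isl1CKO* libraries and between 948 and 1913 in controls, with a median of 1425. The groups overlapped (log2 fold change -0.95, SE 0.19, adjusted p = 0.023). Its partner *Ccdc148* was at 152, 168, 169, 145 and 98.9 scaled counts in the *Isl1CKO* libraries and between 247 and 465 in controls, with a median of 283 (log2 fold change -1.05, SE 0.22, adjusted p = 0.027), and *C630043F03Rik* at 231, 269, 271, 184 and 269.6 scaled counts in the *Isl1CKO* libraries and between 66.1 and 171 in controls, with a median of 102 (log2 fold change 1.21, SE 0.26, adjusted p = 0.037). These 2 partners were named after their values were seen. The call of *Pkp4* was lost in 3 of 11 leave-one-out fits, that of *Ccdc148* in 4 and that of *C630043F03Rik* in 8.

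The promoters of these divergent pairs are printed because 1 stretch of DNA lies between both starts. Each runs 5′ to 3′ on the strand of the named gene, from 250 bases before to 50 bases after its start, as RefSeq gives it on GRCm38.p6, in lower case with CCAAT or its reverse complement ATTGG in capitals. The *Immp1l* window is chr2:105904388-105904687 (plus strand) and shares 173 bases with that of *Elp4*, the *Pkp4* window is chr2:59160600-59160899 (plus strand) and shares 266 bases with that of *Ccdc148*, and the *Tle1* window is chr4:72200844-72201143 (minus strand). The *Tle1* window stops short of the start of *C630043F03Rik* at 72201348, so it does not hold the whole stretch between the 2 starts.
Immp1l: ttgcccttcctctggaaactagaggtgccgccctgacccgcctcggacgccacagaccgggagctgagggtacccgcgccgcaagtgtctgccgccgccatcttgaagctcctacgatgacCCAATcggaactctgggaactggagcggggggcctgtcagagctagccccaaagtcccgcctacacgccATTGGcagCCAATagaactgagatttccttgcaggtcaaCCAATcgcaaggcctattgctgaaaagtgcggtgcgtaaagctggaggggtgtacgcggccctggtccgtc
Pkp4: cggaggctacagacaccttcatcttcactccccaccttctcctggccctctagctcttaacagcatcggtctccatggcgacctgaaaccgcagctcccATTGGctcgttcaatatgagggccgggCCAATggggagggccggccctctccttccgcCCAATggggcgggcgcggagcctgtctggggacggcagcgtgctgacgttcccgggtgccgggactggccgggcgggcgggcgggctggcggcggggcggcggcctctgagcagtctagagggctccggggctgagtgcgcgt
Tle1: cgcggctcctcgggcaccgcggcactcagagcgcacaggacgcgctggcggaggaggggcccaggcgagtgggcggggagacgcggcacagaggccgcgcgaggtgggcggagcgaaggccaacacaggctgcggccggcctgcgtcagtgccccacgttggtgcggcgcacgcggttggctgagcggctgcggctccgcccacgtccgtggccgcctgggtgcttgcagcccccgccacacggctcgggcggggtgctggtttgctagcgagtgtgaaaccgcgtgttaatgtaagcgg
CCAAT was searched on both strands and matched 4 times in the *Immp1l* window, 3 times in the *Pkp4* window and not in the *Tle1* window. Of all 32851 RefSeq promoters 37.4% held it, and so did 38.8% of the 129 promoters of genes called lower and 35.8% of the 95 of genes called higher. TAAT, the core letters bound by many homeodomains, was in 43.3% of the promoters of tested genes, in 48.1% of those of genes called lower and in 42.1% of those of genes called higher. These shares describe letters in the windows only.

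**Figure D3:**
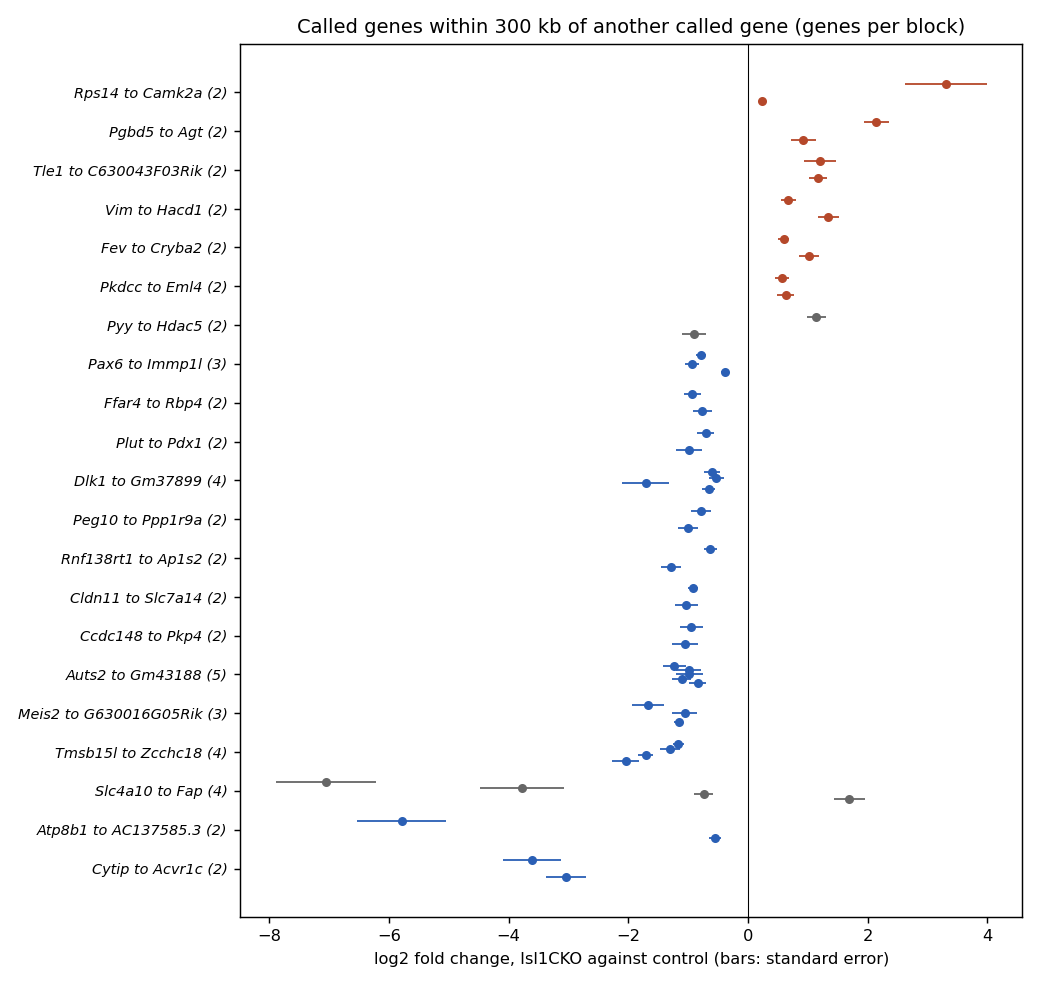
Log2 fold changes (x axis, with standard errors) of 53 of the 55 called genes with another called gene within 300 kb, in 21 of the 22 blocks, named by their first and last gene, with the number of genes in parentheses. Blocks of higher genes are red (6), of lower genes blue (13) and the 2 mixed blocks, which hold *Pyy* and *Hdac5* and *Slc4a10* to *Fap*, grey.

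A block on the X chromosome held 3 thymosin beta 15 genes, which encode actin monomer-binding peptides, next to *Zcchc18*. *Tmsb15b2* was at 212, 253, 246, 230.3 and 221 scaled counts in the *Isl1CKO* libraries and between 672 and 884 in controls, with a median of 756. *Tmsb15b1* was at 144, 101, 156, 121 and 118 scaled counts in the *Isl1CKO* libraries and between 268 and 344 in controls, with a median of 328. *Tmsb15l* was at 74.0, 104, 49.5, 60.7 and 88.4 scaled counts in the *Isl1CKO* libraries and between 265 and 385 in controls, with a median of 293. For all 3 the groups were apart, with log2 fold changes of -1.71 (SE 0.12, adjusted p = 6.1e-06), -1.30 (SE 0.17, adjusted p = 0.0011) and -2.04 (SE 0.23, adjusted p = 3.0e-04). Their annotated spans overlap and their sequences are near copies, and reads that map to several places were not counted, so how the reads divide among the 3 is uncertain. The windows of *Tmsb15b2* (chrX:136957930-136958229, minus strand) and *Tmsb15b1* (chrX:136976825-136977124, minus strand), shown for their likeness with the same capitals, have an identical run of 133 bases, and the window of *Tmsb15l* is the same as that of *Tmsb15b1*. The *Tmsb15b2* window follows the RefSeq start and lies inside the annotated span of that gene, chrX:136955265-136975497.
Tmsb15b2: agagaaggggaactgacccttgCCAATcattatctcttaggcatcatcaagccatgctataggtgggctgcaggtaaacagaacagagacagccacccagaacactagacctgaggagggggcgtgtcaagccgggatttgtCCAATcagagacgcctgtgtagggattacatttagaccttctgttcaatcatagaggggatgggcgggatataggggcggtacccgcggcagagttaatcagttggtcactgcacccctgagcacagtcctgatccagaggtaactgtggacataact
Tmsb15b1: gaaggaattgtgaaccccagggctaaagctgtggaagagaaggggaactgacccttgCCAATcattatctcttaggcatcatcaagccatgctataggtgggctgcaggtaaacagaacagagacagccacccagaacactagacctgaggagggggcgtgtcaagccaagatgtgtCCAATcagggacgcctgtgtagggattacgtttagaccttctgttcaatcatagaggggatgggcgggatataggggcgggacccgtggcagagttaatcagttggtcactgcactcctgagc
The other blocks of lower genes included *Meis2* with 2 noncoding neighbours, *2700033N17Rik* and *G630016G05Rik*, whose log2 fold changes were -1.06 and -1.67, the first with its call lost in 1 of 11 leave-one-out fits. *Auts2*, which encodes a nuclear protein linked to neurodevelopment, was at 582, 764, 521, 524 and 470.1 scaled counts in the *Isl1CKO* libraries and between 847 and 1199 in controls, with a median of 1035 (log2 fold change -0.84, SE 0.14, adjusted p = 0.0087). Within its span lie 4 called transcripts, of which *C230071H17Rik* and *Gm43188* are among the 4 clone-named genes with the smallest p. *C230071H17Rik* was at 394, 447, 592, 494 and 409 scaled counts in the *Isl1CKO* libraries and between 684 and 1273 in controls, with a median of 1004 (log2 fold change -1.11, SE 0.16, adjusted p = 0.0021). *Gm43188* was at 397, 457, 454, 328 and 185 scaled counts in the *Isl1CKO* libraries and between 752 and 966 in controls, with a median of 830.2 (log2 fold change -1.23, SE 0.19, adjusted p = 0.0050). All 4 transcripts lie inside *Auts2*, so their counts may include its unspliced RNA, which was not tested. These neighbours and *Auts2* were also chosen after their values were seen, apart from the 2 clone-named genes.

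In the regulated secretory pathway, 22 granins and prohormone-processing genes were tested and 3 were called in each direction. *Vgf*, a granin-like precursor of several peptides, was at 502, 336, 349, 263 and 347 scaled counts in the *Isl1CKO* libraries and between 62.3 and 195 in controls, with a median of 129.5. Each *Isl1CKO* library was above the control range (log2 fold change 1.39, SE 0.27, adjusted p = 0.018), with the call lost in 1 of 11 leave-one-out fits, whereas *Chga* and *Chgb* were higher at 0.65 and 0.91. *Scg2* was lower at -1.13, but its groups overlapped and the call was lost in 6 of these fits. *Scgn*, which encodes the calcium sensor secretagogin, was at 6978, 6675, 8336, 6005 and 6317 scaled counts in the *Isl1CKO* libraries and between 11073 and 15212 in controls, with a median of 12619.5. There was no overlap between the groups (log2 fold change -0.88, SE 0.094, adjusted p = 2.5e-04). *Nnat*, an imprinted gene whose small membrane protein assists signal peptide cleavage of preproinsulin, was at 6019.7, 5206, 9989.7, 3295 and 5763 scaled counts in the *Isl1CKO* libraries and between 14067 and 30524 in controls, with a median of 19162. Control and *Isl1CKO* libraries were fully apart (log2 fold change -1.77, SE 0.26, adjusted p = 0.0023). Among 68 genes of the exocytosis machinery 2 were lower. *Mctp2*, a membrane protein with several calcium-binding C2 domains, was at 76.2, 179, 80.9, 103 and 136 scaled counts in the *Isl1CKO* libraries and between 368 and 816 in controls, with a median of 581. Both groups kept apart (log2 fold change -2.32, SE 0.28, adjusted p = 5.4e-04). *Cadps*, which primes dense-core vesicles for fusion, fell less (log2 fold change -0.41, SE 0.091, adjusted p = 0.043), and its call failed in 10 of 11 fits. The most abundant other members, *Syt13* and *Napa*, had log2 fold changes of 0.19 and 0.13 and were not called.

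Of 18 gut hormone and neuropeptide genes tested, 3 were higher, namely *Cartpt*, *Sct* and *Agt*, and 1 was lower. The lower one was *Gip*, an incretin hormone of the gut (log2 fold change -3.04), with the call lost in 8 of 11 leave-one-out fits. *Cartpt*, the precursor of CART peptides, was at 8508, 8346, 15219, 3759 and 17657 scaled counts in the *Isl1CKO* libraries and between 422 and 5202 in controls, with a median of 695. Control library 6 was far above the other controls and above 1 *Isl1CKO* library, so the groups overlapped (log2 fold change 2.92, SE 0.62, adjusted p = 0.032), and the call was lost in 8 of 11 leave-one-out fits. *Sct*, which encodes secretin, was at 3056, 3140.0, 2860.3, 2347 and 2898 scaled counts in the *Isl1CKO* libraries and between 1291 and 1892 in controls, with a median of 1564. All 5 *Isl1CKO* libraries were above all 6 controls (log2 fold change 0.86, SE 0.12, adjusted p = 0.0021). Outside that class, *Stc2*, a stanniocalcin hormone induced by stress of the endoplasmic reticulum, was at 629.6, 487, 499.7, 555 and 423 scaled counts in the *Isl1CKO* libraries and between 214 and 289 in controls, with a median of 240.5. The groups did not overlap (log2 fold change 1.08, SE 0.14, adjusted p = 0.0011). Of 8 islet hormone genes 2 were called, both lower, namely *Gcg* and *Pyy*, with calls lost in 1 and 7 of 11 fits, and the groups overlapped for *Pyy*.

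Of 48 islet G protein-coupled receptors tested 2 were called, and both are receptors for long-chain fatty acids. *Ffar1*, which amplifies glucose-stimulated insulin release, was at 401, 248, 416, 254 and 221 scaled counts in the *Isl1CKO* libraries and between 537 and 999 in controls, with a median of 772. Even the highest *Isl1CKO* library was below every control (log2 fold change -1.27, SE 0.21, adjusted p = 0.0067). *Ffar4* was at 604, 627, 805, 817 and 676 scaled counts in the *Isl1CKO* libraries and between 877 and 1584 in controls, with a median of 1225. The groups were apart here too (log2 fold change -0.76, SE 0.16, adjusted p = 0.026), but the call was lost in 5 of 11 leave-one-out fits. *Ffar2*, the receptor for short-chain fatty acids, had a log2 fold change of 0.57 and was not called (adjusted p = 0.089). Among 77 regulators of receptor signalling, *Grk5*, a kinase that desensitises G protein-coupled receptors, was lower at 81.5, 108, 139.9, 74.0 and 93.7 scaled counts in the *Isl1CKO* libraries and between 229.9 and 447 in controls, with a median of 297. No *Isl1CKO* library reached the control range (log2 fold change -1.62, SE 0.23, adjusted p = 0.0022). *Gng3*, a G protein gamma subunit of neurons, was the only other call in that class, and higher (log2 fold change 0.84, SE 0.19, adjusted p = 0.039), with the call lost in 7 of 11 fits.

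Among 209 solute carriers tested 3 were called higher and 4 lower, with a median log2 fold change of 0.029, and the 4 lower ones carry amino acids or monocarboxylates or belong to their families. *Slc7a2*, a carrier of arginine and other cationic amino acids, was at 1138, 1039, 1197, 1025 and 1126 scaled counts in the *Isl1CKO* libraries and between 1993 and 2950.1 in controls, with a median of 2333. Every control was above every *Isl1CKO* library (log2 fold change -1.12, SE 0.12, adjusted p = 2.2e-04). *Slc7a14*, an intracellular relative of that carrier, was at 2698, 2472, 2687, 2532 and 2000.3 scaled counts in the *Isl1CKO* libraries and between 4154 and 5085 in controls, with a median of 4733. Values of the groups did not overlap (log2 fold change -0.92, SE 0.088, adjusted p = 8.7e-05). *Slc16a10*, which carries aromatic amino acids, and *Slc16a12*, a creatine transporter, fell as well (log2 fold change -0.57, SE 0.11, adjusted p = 0.016 and log2 fold change -0.76, SE 0.15, adjusted p = 0.018 respectively). The call of *Slc16a12* was lost in 1 of 11 leave-one-out fits. *Ank*, a membrane protein that exports pyrophosphate and ATP, was at 2462, 2133, 2275, 2022 and 1847 scaled counts in the *Isl1CKO* libraries and between 3153 and 4045 in controls, with a median of 3734. The 5 *Isl1CKO* libraries were all lower than the lowest control (log2 fold change -0.78, SE 0.09, adjusted p = 3.8e-04). In the other direction, *Slc4a10*, a sodium-coupled bicarbonate transporter of neurons, was at 491, 195, 208, 351 and 404 scaled counts in the *Isl1CKO* libraries and between 71.8 and 124 in controls, with a median of 105. The highest control was below the lowest *Isl1CKO* library (log2 fold change 1.70, SE 0.26, adjusted p = 0.0034). Of 48 potassium channels *Kcnh1* alone was called, and of 55 calcium and sodium channels *Asic1* alone, both higher. *Asic1*, a proton-gated sodium channel, was at 173, 186, 117, 116 and 87.5 scaled counts in the *Isl1CKO* libraries and between 35.2 and 58.9 in controls, with a median of 43.7. Each *Isl1CKO* library was above the control range (log2 fold change 1.57, SE 0.29, adjusted p = 0.012). *Kcnj11*, the pore of the ATP-sensitive potassium channel, had a log2 fold change of -0.03 and was not called.

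Enzymes of amino acid, creatine and lipid handling moved in both directions, 3 higher and 3 lower of 58 tested, with a median log2 fold change of 0.20. *Arg1*, arginase, which splits arginine into urea and ornithine, was at 370.1, 389.6, 345, 276 and 143 scaled counts in the *Isl1CKO* libraries and between 451 and 1344 in controls, with a median of 949. There was no overlap between the groups (log2 fold change -1.61, SE 0.3, adjusted p = 0.014). *Ass1*, argininosuccinate synthase, which makes the precursor of arginine, was at 294, 472, 530.2, 659 and 417 scaled counts in the *Isl1CKO* libraries and between 144 and 296 in controls, with a median of 215. The groups overlapped (log2 fold change 1.10, SE 0.22, adjusted p = 0.023), and its call failed in 3 of 11 leave-one-out fits. *Ckb*, the brain-type creatine kinase, was at 1702, 1132, 928, 638 and 656 scaled counts in the *Isl1CKO* libraries and between 211 and 482 in controls, with a median of 344. Both groups kept apart (log2 fold change 1.56, SE 0.27, adjusted p = 0.0092). *Fmo1*, a flavin-containing monooxygenase, was at 60.1, 76.9, 45.7, 18.5 and 19.3 scaled counts in the *Isl1CKO* libraries and between 192 and 447 in controls, with a median of 268. All 5 *Isl1CKO* libraries were below all 6 controls (log2 fold change -2.72, SE 0.39, adjusted p = 0.0019). *Hpgds*, which makes prostaglandin D2, was at 30.0, 48.6, 144, 96.6 and 75.3 scaled counts in the *Isl1CKO* libraries and between 192 and 409 in controls, with a median of 316. The groups did not overlap (log2 fold change -1.96, SE 0.35, adjusted p = 0.011). *Fabp3*, a fatty acid-binding protein, was at 786, 641, 537, 534 and 695 scaled counts in the *Isl1CKO* libraries and between 281 and 407 in controls, with a median of 353 (log2 fold change 0.88, SE 0.15, adjusted p = 0.0066).

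*Hadh*, the mitochondrial 3-hydroxyacyl-CoA dehydrogenase that also restrains glutamate dehydrogenase and so amino acid-stimulated insulin release, was at 1640.1, 1815, 1514, 1176 and 1537 scaled counts in the *Isl1CKO* libraries and between 2561 and 5285 in controls, with a median of 3706. Even the highest *Isl1CKO* library was below every control (log2 fold change -1.35, SE 0.17, adjusted p = 8.4e-04). *Gk*, glycerol kinase, was at 110.5, 352, 199.9, 385 and 438 scaled counts in the *Isl1CKO* libraries and between 493 and 1106 in controls, with a median of 799.7. No *Isl1CKO* library reached the control range (log2 fold change -1.45, SE 0.3, adjusted p = 0.027), and the call was lost in 3 of 11 leave-one-out fits. *Aldoa*, aldolase A of glycolysis, rose slightly (log2 fold change 0.42, SE 0.072, adjusted p = 0.0088), and with *Gk* it made up the calls among 55 genes of glycolysis and the citrate cycle. *Asns*, asparagine synthetase, was at 738, 1134, 1141, 1017 and 1531 scaled counts in the *Isl1CKO* libraries and between 543 and 706 in controls, with a median of 617. Every control was below every *Isl1CKO* library (log2 fold change 0.84, SE 0.15, adjusted p = 0.012), and it was the 1 call among 44 genes of endoplasmic reticulum folding and the unfolded protein response; *Hspa5*, the main chaperone of that compartment, had a log2 fold change of 0.00. The ribosomal protein genes had 1 call in 83, *Rps14* (log2 fold change 0.24, SE 0.056, adjusted p = 0.047), and that call was lost in 10 of 11 fits.

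**Figure D4:**
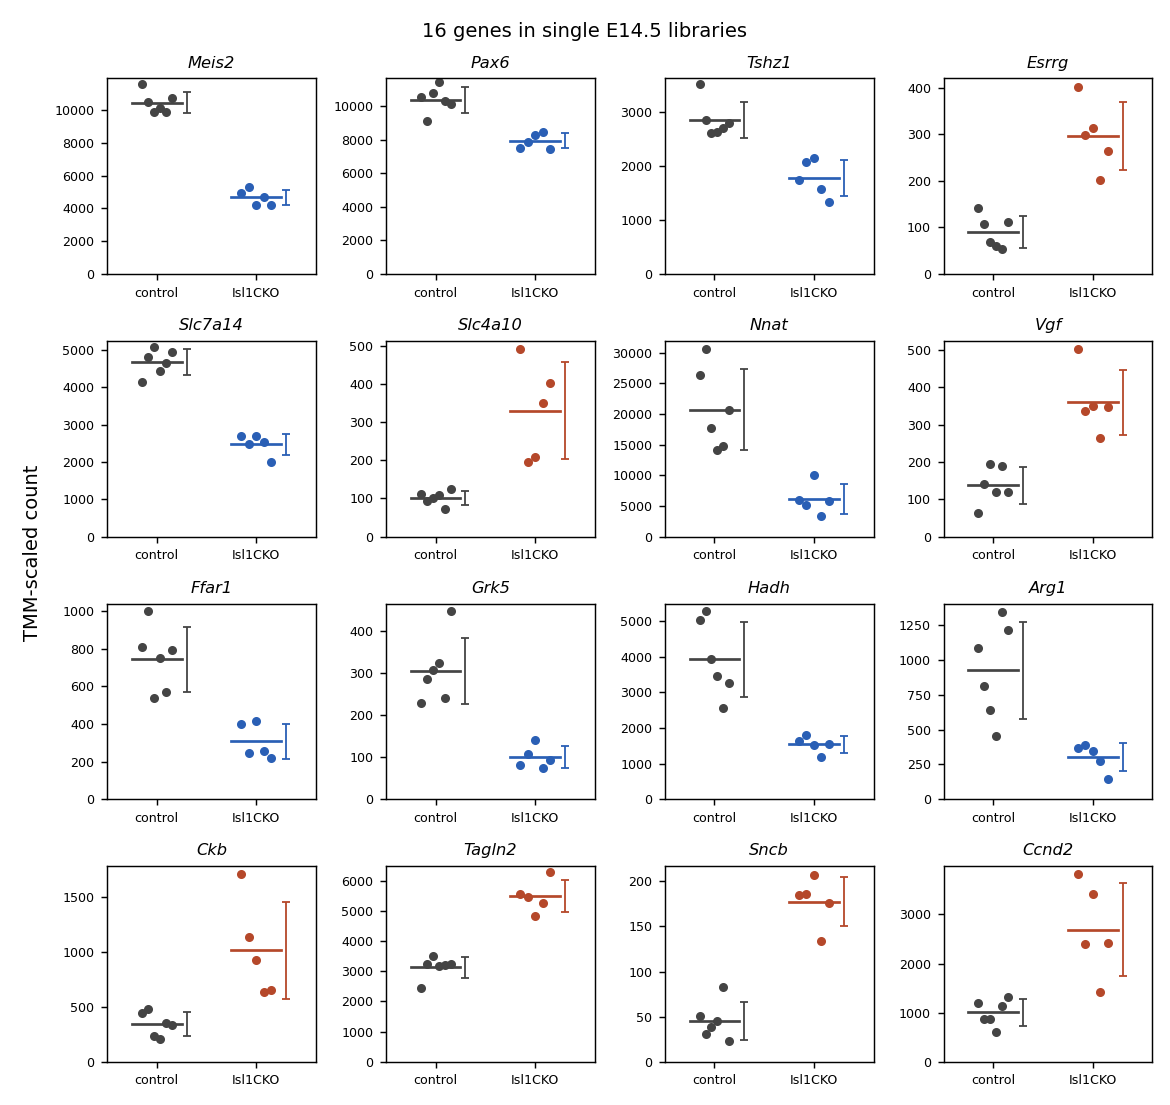
Scaled counts of 16 genes in single libraries; dots are libraries, lines are group means and bars are the SD (6 control, 5 *Isl1CKO*), and each y axis starts at 0. The 16 were picked from the called genes, among them the homeobox gene *Pax6*, the transporters *Slc7a14* and *Slc4a10*, and the enzymes *Hadh*, *Arg1* and *Ckb*. The groups do not overlap in these panels, nor for 2.49% of all genes tested. Called genes whose groups overlap, such as *Cartpt*, *Tmod2* and *Rbp4*, are not drawn.

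Of 59 genes of the cytoskeleton tested 4 were higher and 4 lower: the lower ones were the 3 thymosin beta 15 genes and *Mapt*, and the higher ones *Vim*, *Nefl*, *Tubb6* and *Krt7*, the last with its call lost in 9 of 11 leave-one-out fits. *Nefl*, the light neurofilament subunit, was at 95.5, 251, 190.4, 81.2 and 264 scaled counts in the *Isl1CKO* libraries and between 21.7 and 66.1 in controls, with a median of 49.7. Values of the groups did not overlap (log2 fold change 1.91, SE 0.38, adjusted p = 0.023). *Tubb6*, a beta-tubulin, was at 145, 84.0, 114, 129.5 and 201 scaled counts in the *Isl1CKO* libraries and between 12.3 and 71.3 in controls, with a median of 29.6. The 5 *Isl1CKO* libraries were all higher than the highest control (log2 fold change 1.95, SE 0.41, adjusted p = 0.032). The calls of *Nefl* and *Tubb6* were lost in 4 and 7 of 11 leave-one-out fits. *Tagln2*, the actin-binding transgelin 2, was at 5548, 5477, 4829, 5267 and 6289 scaled counts in the *Isl1CKO* libraries and between 2461 and 3502 in controls, with a median of 3221. The highest control was below the lowest *Isl1CKO* library (log2 fold change 0.81, SE 0.092, adjusted p = 3.3e-04). *Tmod2*, a tropomodulin that caps actin filaments in neurons, was at 3549, 2948, 2456, 1105 and 2224 scaled counts in the *Isl1CKO* libraries and between 722 and 1125 in controls, with a median of 1054. *Isl1CKO* library 4 lay within the control range, so the groups overlapped (log2 fold change 1.30, SE 0.22, adjusted p = 0.0081). *Sncb*, beta-synuclein, was at 184, 186, 208, 134 and 176 scaled counts in the *Isl1CKO* libraries and between 22.7 and 83.2 in controls, with a median of 41.7. Each *Isl1CKO* library was above the control range (log2 fold change 1.97, SE 0.32, adjusted p = 0.0057). *Phactr1*, which binds actin and protein phosphatase 1, was at 428, 244, 378, 223 and 383 scaled counts in the *Isl1CKO* libraries and between 524 and 1344 in controls, with a median of 677. There was no overlap between the groups (log2 fold change -1.25, SE 0.25, adjusted p = 0.024), with the call lost in 3 of 11 fits.

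At the cell surface, *Cldn11*, a claudin of tight junctions, was at 772, 569.7, 710.1, 466 and 479 scaled counts in the *Isl1CKO* libraries and between 685 and 1516 in controls, with a median of 1277. The groups overlapped (log2 fold change -1.03, SE 0.19, adjusted p = 0.017). Among 38 claudins and junction genes it and *Pkp4* were lower and *Cldn4* higher, with the call of *Cldn4* lost in 8 of 11 leave-one-out fits. *Lgi2*, a secreted leucine-rich glycoprotein, was at 868, 522, 659, 324 and 459.6 scaled counts in the *Isl1CKO* libraries and between 141 and 267 in controls, with a median of 174. Both groups kept apart (log2 fold change 1.59, SE 0.24, adjusted p = 0.0032). Of 90 extracellular matrix genes 2 were higher and 1 lower. *Gpc4*, a heparan sulphate proteoglycan that binds growth factors, was at 1994, 2456, 3055, 2972 and 2535 scaled counts in the *Isl1CKO* libraries and between 691 and 1915 in controls, with a median of 1354. All 5 *Isl1CKO* libraries were above all 6 controls (log2 fold change 0.98, SE 0.2, adjusted p = 0.026). *Fndc1*, a fibronectin type III protein, was at 245, 309.6, 229, 279.7 and 157 scaled counts in the *Isl1CKO* libraries and between 4.01 and 72.5 in controls, with a median of 56.8 (log2 fold change 2.45, SE 0.49, adjusted p = 0.023). *Col6a6*, a collagen VI chain, was at 57.9, 69.8, 73.3, 49.4 and 55.2 scaled counts in the *Isl1CKO* libraries and between 94.0 and 303 in controls, with a median of 189.5 (log2 fold change -1.72, SE 0.29, adjusted p = 0.0081). The groups were apart for both *Fndc1* and *Col6a6*. Mesenchyme markers, listed beside the matrix genes, had 5 of 10 tested and none called, with a median log2 fold change of -1.45, and DESeq2 called 2 of them lower; their part in the matrix genes' changes was not tested. The calls of *Gpc4*, *Fndc1* and *Cldn11* were lost in 6, 2 and 1 of 11 leave-one-out fits.

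Of signalling and growth genes, *Wls*, which carries Wnt ligands to the cell surface, was at 3423, 2556, 2532, 2286 and 2083 scaled counts in the *Isl1CKO* libraries and between 1215 and 1802 in controls, with a median of 1444. The groups did not overlap (log2 fold change 0.81, SE 0.13, adjusted p = 0.0057). *Znrf3*, a ubiquitin ligase that removes Wnt receptors, was at 509.5, 406, 415, 492 and 316 scaled counts in the *Isl1CKO* libraries and between 603 and 891 in controls, with a median of 665. Even the highest *Isl1CKO* library was below every control (log2 fold change -0.72, SE 0.15, adjusted p = 0.026). These and *Tle1* were the 3 calls among 54 genes of Wnt signalling, and the call of *Znrf3* was lost in 4 of 11 leave-one-out fits. *Ccnd2*, cyclin D2 of the G1 phase, was at 3821, 2389, 3419, 1414 and 2414 scaled counts in the *Isl1CKO* libraries and between 608 and 1324 in controls, with a median of 1012. Every *Isl1CKO* library lay above the control range (log2 fold change 1.42, SE 0.23, adjusted p = 0.0066). It was the 1 call among 27 D cyclins, kinases and inhibitors, and *Mcm6*, a subunit of the replicative helicase, the 1 among 54 genes of S phase and mitosis. *Mcm6* was at 579, 488, 404, 305 and 390.4 scaled counts in the *Isl1CKO* libraries and between 67.9 and 316 in controls, with a median of 133. The groups overlapped (log2 fold change 1.53, SE 0.34, adjusted p = 0.039), with the call lost in 9 of 11 fits. *Garem1*, an adaptor of growth factor receptors, was the 1 call among 60 genes of FGF and receptor tyrosine kinase feedback (log2 fold change 1.41, SE 0.29, adjusted p = 0.027), and it too was lost in 7 of 11 fits. *Acvr1c*, the activin receptor ALK7, and its neighbour *Cytip* formed a block on chromosome 2. *Cytip*, which binds the cytohesin family at the cell cortex, was at 113, 96.1, 76.1, 30.8 and 35.0 scaled counts in the *Isl1CKO* libraries and between 362 and 836 in controls, with a median of 549. Values of the groups did not overlap (log2 fold change -3.04, SE 0.34, adjusted p = 3.1e-04). *Ppp2r2b*, a regulatory subunit of protein phosphatase 2A, was at 419, 223, 256, 219 and 199 scaled counts in the *Isl1CKO* libraries and between 527 and 874 in controls, with a median of 791. The 5 *Isl1CKO* libraries were all lower than the lowest control (log2 fold change -1.54, SE 0.2, adjusted p = 8.5e-04).

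Imprinted genes, which are expressed from 1 parental allele and many of which act on growth, were lower where they were called. Of 46 tested, 6 were lower and none higher, with a median log2 fold change of -0.19, and DESeq2 called 11 lower and 1 higher; without *Isl1CKO* libraries 3, 4 and 5, edgeR called 1. *Nnat* is given above. *Dlk1*, a Notch-like membrane ligand, was at 2282, 3224, 2617, 3039 and 3087 scaled counts in the *Isl1CKO* libraries and between 3871 and 5519 in controls, with a median of 4382. The lowest control was above the highest *Isl1CKO* library (log2 fold change -0.65, SE 0.11, adjusted p = 0.0069). It lies on chromosome 12 with the noncoding *Rian*, which was at 4353, 4592, 4294, 3775 and 3039 scaled counts in the *Isl1CKO* libraries and between 4415 and 7109 in controls, with a median of 5660.3 (log2 fold change -0.53, SE 0.12, adjusted p = 0.049), and with 2 other called transcripts, *Gm34081* and *Gm37899*, at log2 fold changes of -1.70 and -0.60. *Ppp1r9a*, neurabin, a neighbour of *Peg10*, was at 1326, 782, 869, 1184 and 980.5 scaled counts in the *Isl1CKO* libraries and between 1315 and 2387 in controls, with a median of 1737. The groups overlapped (log2 fold change -0.79, SE 0.17, adjusted p = 0.031). *Rasgrf1*, a calcium-responsive activator of Ras, was at 265, 274, 198, 192 and 158 scaled counts in the *Isl1CKO* libraries and between 274 and 545 in controls, with a median of 472. The groups overlapped (log2 fold change -0.98, SE 0.22, adjusted p = 0.043). The calls of *Rian*, *Ppp1r9a* and *Rasgrf1* were lost in 10, 6 and 9 of 11 leave-one-out fits, those of *Gm34081* and *Gm37899* in 10 and 9, and that of *Dlk1* in none.

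Liver-type secreted proteins had 5 genes higher and 1 lower of 39 tested, and the median of their log2 fold changes was 0.46. The higher ones were *Gc*, *Agt*, *Ttr*, *Fgb* and *Apoa1*, and the calls of the last 2 were lost in 1 and 10 of 11 leave-one-out fits. The lower one was *Rbp4*, the plasma carrier of retinol, at 26621, 29210.1, 41704, 27319.7 and 24357 scaled counts in the *Isl1CKO* libraries and between 40859.7 and 73759 in controls, with a median of 55783. *Isl1CKO* library 3 lay just above the lowest control, so the groups overlapped (log2 fold change -0.93, SE 0.15, adjusted p = 0.0047). *Ttr*, whose protein binds RBP4 in plasma, moved the other way (log2 fold change 0.80). *Spp2*, a secreted phosphoprotein of bone and liver, was also higher, at 378, 237, 779, 106 and 462 scaled counts in the *Isl1CKO* libraries and between 27.1 and 83.8 in controls, with a median of 61.1. Control and *Isl1CKO* libraries were fully apart (log2 fold change 2.75, SE 0.44, adjusted p = 0.0055). Hepatoblast markers, listed beside this class, had 9 of 10 tested and 2 called higher, with a median of 1.09; their summed share of counts was 0.00279% to 0.00743% in controls and 0.00625% to 0.0269% in *Isl1CKO* libraries. The 2 called markers were *Fgb* and *Apoa1*, which are also counted in the liver-type class. Of the 9 tested, 7 had a positive log2 fold change, and DESeq2 called 4 higher. *Alb*, another of these markers, averaged 17.2 scaled counts in controls and 23.7 in *Isl1CKO* cells (adjusted p = 0.94). The part of liver cells in these values was not tested. In immune-related classes, *B2m*, the light chain of MHC class I, was at 467, 369, 552, 517 and 770.4 scaled counts in the *Isl1CKO* libraries and between 159.7 and 343 in controls, with a median of 257. Both groups kept apart (log2 fold change 1.05, SE 0.21, adjusted p = 0.024), with the call lost in 4 of 11 leave-one-out fits. *Gimap6*, a GTPase of lymphocytes, was at 373, 318, 155, 356 and 282 scaled counts in the *Isl1CKO* libraries and between 26.1 and 122 in controls, with a median of 70.6. All 5 *Isl1CKO* libraries were above all 6 controls (log2 fold change 1.99, SE 0.36, adjusted p = 0.012). Summed shares of macrophage and endothelial markers are given above, and the part of such cells in these values was not tested.

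Genes outside these classes were among those with the smallest p. *Fam213a*, a redox-active thioredoxin-like protein, was at 4812, 5589, 7147, 5622 and 6289.9 scaled counts in the *Isl1CKO* libraries and between 2620.1 and 3832 in controls, with a median of 2966. The groups did not overlap (log2 fold change 0.92, SE 0.11, adjusted p = 5.4e-04). *Cryba2*, a beta-crystallin found in islets as well as the lens and a neighbour of *Fev*, was at 7227, 5059, 5468, 5013 and 5255 scaled counts in the *Isl1CKO* libraries and between 3499 and 3881 in controls, with a median of 3700.3. Even the lowest *Isl1CKO* library was above every control (log2 fold change 0.60, SE 0.091, adjusted p = 0.0034). *Mum1l1*, a PWWP-domain gene on the X chromosome, was at 1825, 1894, 2189, 2167 and 2456 scaled counts in the *Isl1CKO* libraries and between 1105 and 1417 in controls, with a median of 1271 (log2 fold change 0.75, SE 0.096, adjusted p = 8.5e-04). *Fchsd2*, which acts in endocytosis, was at 782, 704, 606, 647 and 663 scaled counts in the *Isl1CKO* libraries and between 369.5 and 473 in controls, with a median of 427 (log2 fold change 0.66, SE 0.11, adjusted p = 0.0081). The groups were apart for both.

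Among the lower genes of this kind, *Ociad2*, a membrane protein of endosomes and mitochondria, was at 1795, 1247, 1796, 1892 and 1567 scaled counts in the *Isl1CKO* libraries and between 3041 and 4631 in controls, with a median of 3626. No *Isl1CKO* library reached the control range (log2 fold change -1.16, SE 0.12, adjusted p = 2.5e-04). *Klhl13*, a substrate adaptor of a cullin ubiquitin ligase, was at 654, 430.1, 597, 600.4 and 678 scaled counts in the *Isl1CKO* libraries and between 1031 and 1489 in controls, with a median of 1273. Every control was above every *Isl1CKO* library (log2 fold change -1.09, SE 0.13, adjusted p = 5.4e-04). *Rnf138rt1*, an X-linked retrocopy of a ubiquitin ligase gene, was at 321, 318, 287, 206 and 256 scaled counts in the *Isl1CKO* libraries and between 483 and 783 in controls, with a median of 731 (log2 fold change -1.29, SE 0.16, adjusted p = 8.4e-04). As a retrocopy it may share reads with its parent gene, so its value is uncertain. *Galnt18*, of the family that starts mucin-type O-glycosylation, was at 98.7, 56.7, 91.4, 77.1 and 123.4 scaled counts in the *Isl1CKO* libraries and between 200.4 and 409 in controls, with a median of 348 (log2 fold change -1.86, SE 0.25, adjusted p = 0.0012). *Maob*, monoamine oxidase B, was at 1125, 1167, 968, 1577 and 1385 scaled counts in the *Isl1CKO* libraries and between 1664 and 3989.7 in controls, with a median of 2367. Values of the groups did not overlap (log2 fold change -1.02, SE 0.2, adjusted p = 0.020), with the call lost in 3 of 11 leave-one-out fits.

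Of 405 long intergenic RNAs tested 8 were lower and none higher, and of 494 antisense RNAs 5 were lower and none higher. Among 12944 protein-coding genes 93 were higher and 112 lower. Over all genes tested, 0.602% were called higher and 0.827% lower. The counts of noncoding RNAs are small beside these shares, and the RNA types were not tested as sets. Of 250 processed transcripts 2 were higher and 1 lower, and of 687 processed pseudogenes none was called. The study's methods give default counting parameters and name no strand setting, so values of an antisense RNA and of the gene it overlaps may affect each other. Of the 5 called antisense RNAs, 2 overlap another called gene. Among the 4 clone-named genes with the smallest p, *AC137585.3*, a long intergenic RNA on chromosome 18 next to *Atp8b1*, fell from 44.1 to 211 in controls (median 162) to 1.07, 5.06, 6.66, 0 and 0 in the *Isl1CKO* libraries, 2 of them at 0 (log2 fold change -5.78, SE 0.74, adjusted p = 8.4e-04). *A330076H08Rik* was the 1 of the 4 that was higher, at 2023, 1495, 2005, 1470.2 and 1779.7 scaled counts in the *Isl1CKO* libraries and between 909 and 1055 in controls, with a median of 1033. The 5 *Isl1CKO* libraries were all higher than the highest control (log2 fold change 0.80, SE 0.1, adjusted p = 8.4e-04).

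The effect of the deletion was then set beside that at P9 in 1 edgeR model of all 22 libraries, in which the difference of the 2 effects is an interaction of genotype and age. The ages share no control libraries. Of 17265 genes tested, 359 differed in their effect between the ages, which is 2.08%; 29 of them were among the 228 called at E14.5 (12.7% of the 228 and 8.08% of the 359). Of these 29, 15 had opposite signs at the 2 ages, 8 had the same sign and a larger effect at P9, and 6 the same sign and a smaller one. All 228 genes had a P9 value, and 179 had the same sign there: 83 of the 96 higher and 96 of the 132 lower. Under total-count scaling of the P9 effect 156 had the same sign. At P9 the same model called 1814 genes, among them 104 of the 228 (45.6% of the 228 and 5.73% of the 1814), and 98 of the 104 kept their sign. The median of the interaction was 0.056 under TMM scaling and 0.68 under total-count scaling, which called 3109 genes higher and 90 lower at P9 against 212 and 147, so the differences below are relative to TMM scaling.

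*Ccnd2* changed direction, with log2 fold changes of 1.42 at E14.5 and -0.83 at P9 (difference -2.25, adjusted p = 7.9e-05). *Hivep2* did as well, at 3.15 and -0.54 (difference -3.69, adjusted p = 0.0037), and so did *Asic1*, at 1.57 and -0.66 (difference -2.23, adjusted p = 0.025). Under total-count scaling the P9 values were -0.17 for *Ccnd2*, 0.11 for *Hivep2* and -0.0039 for *Asic1*, so the sign of *Hivep2* at P9 flipped and that of *Asic1* rested on a value near 0. The retinol carrier *Rbp4* was lower at E14.5 and not at P9, at -0.93 and 0.62 (difference 1.55, adjusted p = 0.030), and the imprinted *Dlk1* followed the same pattern, at -0.65 and 1.27 (difference 1.92, adjusted p = 0.027). *Isl1* went from -0.49 to 1.08 (difference 1.57, adjusted p = 7.1e-04). Effects that were larger at P9 included those of *Hadh*, at -1.35 and -2.90 (difference -1.54, adjusted p = 0.0020), *Grk5*, at -1.62 and -4.28 (difference -2.66, adjusted p = 0.016), and *Phactr1*, at -1.25 and -2.79 (difference -1.55, adjusted p = 0.0075).

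Higher genes with larger P9 effects were *Fam213a*, at 0.92 and 2.77 (difference 1.85, adjusted p = 0.0010), and *Fchsd2*, at 0.66 and 2.14 (difference 1.48, adjusted p = 0.030). Other genes had a smaller effect at P9: *Meis2* was at -1.16 and -0.06 (difference 1.09, adjusted p = 0.0045), *Zcchc18* at -1.17 and -0.06 (difference 1.10, adjusted p = 3.7e-04), *Ociad2* at -1.16 and -0.19 (difference 0.98, adjusted p = 0.042), *Kcnh1* at 4.40 and 0.69 (difference -3.71, adjusted p = 0.027) and *Tmod2* at 1.29 and 0.09 (difference -1.20, adjusted p = 0.024). Under total-count scaling the P9 values of *Meis2*, *Zcchc18* and *Ociad2* changed sign, to 0.60, 0.59 and 0.49. The differences named above kept their sign under that scaling, and *Tmod2* lost its call (adjusted p = 0.13). For the thymosin genes and *Slc7a14* no difference was called: *Tmsb15b2* was at -1.71 and -2.75, and *Slc7a14* at -0.92 and -0.97.

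**Figure D5:**
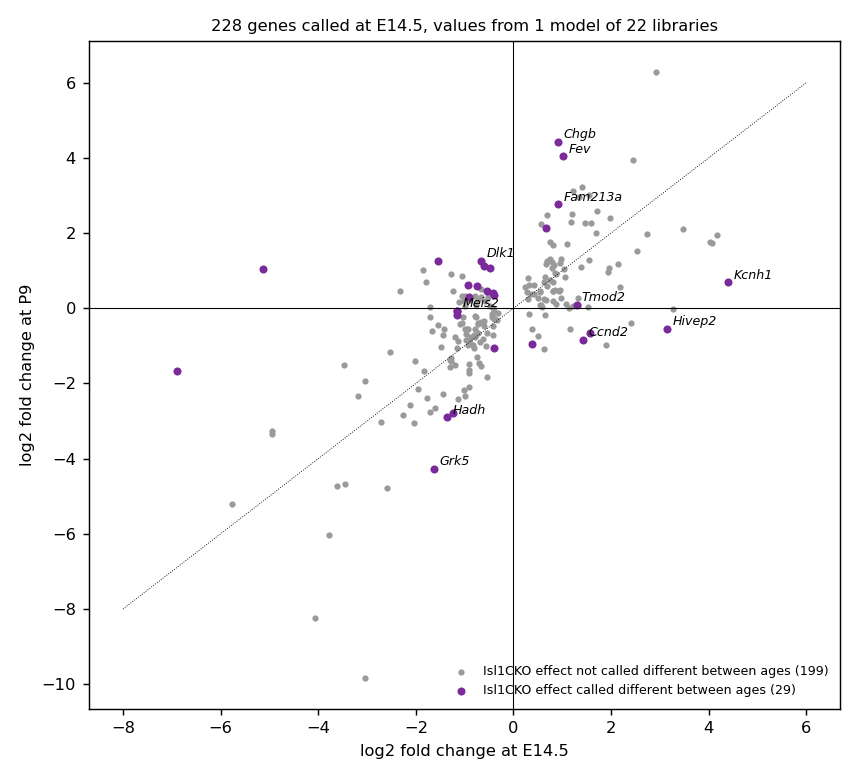
Log2 fold change at E14.5 (x axis) against that at P9 (y axis) for the 228 genes called at E14.5, both from 1 model of 22 libraries; the dotted line marks equal effects. Purple points are the 29 genes whose effect differed between the ages, 15 of them in the quadrants of opposite sign, and grey points are the others.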

How the data were processed

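Libraries of 100 tdTomato+ cells were made with a low-input kit that copies and amplifies cDNA. The values deposited by the authors were raw read counts per gene: per the labels and the study's methods, reads were trimmed with cutadapt 1.18, ribosomal reads were removed with Bowtie 1.2.2, the rest was aligned to GRCm38.p6 with STAR 2.7.0c, and reads mapping to several places were not counted. Per the study's methods, reads were counted with Rsubread at default parameters, and no strand setting was named. Depth was 11299969 to 13580985 counts per library. No molecular identifiers were described, so amplification adds to the spread of low counts, and changes of a few counts were not detectable.

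Genes with low counts were removed by filterByExpr, which left 15960 of 27124, and edgeR 4.0.16 in R 4.3.3 (TMM scaling, quasi-likelihood F test, Benjamini-Hochberg adjustment over all genes tested) compared 5 *Isl1CKO* with 6 control libraries of E14.5 without covariates. A second model of all 22 libraries tested the interaction of genotype and age over 17265 genes. DESeq2 1.42.0, the study's method, and limma 3.58.1 (voom) served as alternatives, with other scalings, filters, dispersion settings, a replicate block, the *Xist* level as a term and the omission of libraries. The fits were tested on simulated data. Names, biotypes and coordinates came from GENCODE M21, which held 27078 of the 27124 gene identifiers, and promoters from RefSeq.

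Described were *Isl1*, in each direction the 20 named genes of smallest p whose scaled counts averaged 50 or more, outside alpha-cell, progenitor, beta-cell factor and islet hormone lists, up to 6 called members of each class (where fewer than 3 were called, also up to 2 abundant others), 6 genes in each direction of the interaction and 4 clone-named genes; a few genes that these rules select are not reported here. Members and lists were chosen with earlier results of these data known. Figures were drawn with matplotlib 3.10.9.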

Additional observations from a re-analysis of the deposited data

Results flagged for a closer look

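In 11 of 182 groups of values, 1 library lay far from the others of its group by a test on the gap to its nearest neighbour; chance alone flags about 1 in 20 groups. Control library 1 was the one apart in 5 of them: it was the highest control for *Tshz1* (3515 scaled counts), *Hivep2* (24.9), *Elp4* (2481) and *Ccdc148* (465) and the lowest for *Tagln2* (2461). Control library 6 had 5202 scaled counts of *Cartpt*, and control library 5 had 527 of *Ppp2r2b*. Among the *Isl1CKO* libraries, library 1 was high for *Ppp2r2b* (419) and *Cryba2* (7227) and library 3 for *Rbp4* (41704), and library 5 was low for *Isl1* (8884).

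The effect of the deletion differed between P9 and E14.5 for 359 genes by edgeR's test of the interaction. Among the genes described, the P9 effect was higher than that at E14.5 (difference of log2 fold changes) for *Dlk1* by 1.92, *Fam213a* by 1.85, *Isl1* by 1.57, *Rbp4* by 1.55, *Fchsd2* by 1.48, *Zcchc18* by 1.10, *Meis2* by 1.09, *Ociad2* by 0.98 and *Nfat5* by 0.81. It was lower, with a difference of -3.71 for *Kcnh1*, -3.69 for *Hivep2*, -2.66 for *Grk5*, -2.25 for *Ccnd2*, -2.23 for *Asic1*, -1.55 for *Phactr1*, -1.54 for *Hadh* and -1.20 for *Tmod2*.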

How the results depend on the processing

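No alternative turned the direction of any of the 228 called genes, 91 of which are described with a test. Of the genes named as not called, *Kcnj11* and *Bmpr1a* changed sign in 1 of 23 settings each and *Hspa5* in 13, with values between -0.15 and 0.07 throughout. The count of 228 called genes became 653 with DESeq2, 59 in the model over all 22 libraries (56 of them among the 228) and 134 with a replicate block (115 among the 228), and ranged from 114 to 227 when 1 library was left out, with counts lower by more than 1.5 times without *Isl1CKO* libraries 2 (147), 3 (146) and 5 (114). Without *Isl1CKO* libraries 3, 4 and 5 together it was 42; this setting and total counts without islet hormone genes (231) were chosen after seeing the data. The other settings gave 175 to 276. Of the 91 genes, 62 were called in all 11 leave-one-out fits; 57 lost the call in the model over 22 libraries, 28 with the replicate block, 11 with the *Xist* level as a term and 64 without libraries 3, 4 and 5. The count of 359 differences between ages became 924 with DESeq2, 3199 with total counts (3109 higher and 90 lower at P9, against 212 and 147), 138 with a replicate block and 219 to 484 with 1 library left out, with counts lower by more than 1.5 times without *Isl1CKO* E14.5 libraries 1 (219) and 3 (227). No source used here says whether libraries with the same replicate number were paired, though the study describes its comparisons as typically between littermates. Deviations of same-numbered libraries correlated at -0.062 to 0.078, and 2 of 5 were nearest to their own number. With so few noisy libraries, this check cannot settle whether they were paired. The cause of the changes in the counts of called genes was not tested. With 100 cells a library, low counts spread widely and small changes of such genes were not detectable.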

Other observations

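*Xist*, the noncoding RNA of the inactive X chromosome, was at 8.57 or above (log2 of TMM-scaled CPM + 1) in control libraries 2 and 6 and *Isl1CKO* libraries 2, 3 and 4, and at 0.30 to 0.98 in the other 6 libraries. With this level as a term of the model edgeR called 175 genes.

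Of 26 immediate early genes tested *Klf4* alone was called and the class median was -0.17, with *Fos* at -0.42 (adjusted p = 0.58). Of 36 genes of activin, BMP and TGF-beta signalling *Acvr1c* alone was called, with *Id2*, a target of BMP signalling, at 0.26 (adjusted p = 0.54) and the BMP receptor gene *Bmpr1a* at -0.03 (adjusted p = 0.94).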
